A study of Mus musculus with 12 samples.

Results

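The genes described here encode the enzymes that attach glucuronic acid, sulfate or glutathione to drugs, hormones and bile constituents, together with the carboxylesterases that split ester and amide bonds. They were chosen by symbol alone, as all rows of the deposited table whose name begins as a UDP-glycosyltransferase (Ugt1, Ugt2, Ugt3 or Ugt8), a sulfotransferase (Sult), a glutathione S-transferase (Gst of the alpha, mu, pi, theta, kappa or omega class, with the microsomal Mgst) or a carboxylesterase (Ces). Of 24421 genes in the table, 82 rows matched, and 71 had a summed count of at least 10 over the 12 libraries and form the set. It holds 21 Ugt, 12 Sult, 21 Gst (19 Gst and 2 Mgst) and 17 Ces rows. Of the 11 rows under the minimum, 6 were at 0 in all libraries (Ces5a, Sult1c1, Sult2a3, Sult2a4, Sult2a5 and Sult2a6), and the others (Ces2f, Gstt4, Mgst2, Sult2a1 and Sult2a2) had summed counts of 2 to 7.5. A filter on low counts left 64 members in the tests, of 13880 genes tested. The 7 members it removed (Ces1a, Gsto2, Sult2b1, Sult3a1, Sult6b1, Ugt2a1 and Ugt2a2) are given by their counts.

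RNA was sequenced from liver tissue without tumour of 12 male mice, 3 in each of 4 groups: LiK on a normal diet, LiK on ACR, LiKM on a normal diet and LiKM on ACR. ACR is an acyclic retinoid, a vitamin A analogue studied against liver cancer, and it made up 0.06% of the diet from 5 weeks of age until the mice were killed at 4 months. The labels name the strains without their alleles. What is known of the study is that LiKM mice, and not LiK mice, are meant to carry a hepatocyte deletion of Mdm2, the ubiquitin ligase of p53. Neither the alleles shared by both strains nor the driver and efficiency of the deletion are stated in the sources used here. Library totals ran from 10124813 counts (LiKM normal diet 3) to 18647156 (LiK normal diet 2). Library identifiers began with MP for LiK normal diet 2 and 3 and LiKM ACR 3, and with KM for the other libraries. What this prefix marks is not stated in the sources used here. It overlaps in part with strain on the normal diet and with diet in LiK, so it cannot be fully told apart from them.

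Mdm2 was at 21.6 to 25.8 CPM (read counts scaled to library size and by edgeR's TMM factors) in the 6 LiK libraries and at 28.95 to 67.2 in the 6 LiKM libraries, but its reads were summed over all exons, so these levels say nothing of a deleted exon. Cdkn1a, a p53 target, was at 1.67 to 6.97 CPM in LiK and at 15.1 to 113 in LiKM, so the strains did not overlap. The 15 hepatocyte markers looked for were all detected in every group. Summed over 12 markers of bile duct and progenitor cells, the level was 56.4 to 71.2 CPM in the LiK normal diet group and 54.0 to 212 on ACR, but 662 to 1108 in the LiKM normal diet group and 367 to 573 on ACR. In bulk tissue, fewer cells of a type and less RNA per cell cannot be told apart.

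Most enzymes of the Ugt, Sult and Gst families carry out what is called phase 2 of detoxification, the attachment of such groups. UDP-glycosyltransferases sit in the endoplasmic reticulum and transfer a sugar, mostly glucuronic acid, from a UDP-sugar. Sulfotransferases of the cytosol transfer sulfate from PAPS, and glutathione S-transferases join glutathione to electrophiles or reduce peroxides with it. Carboxylesterases hydrolyse ester drugs and, in the liver, also stored lipids. All are made at high levels by hepatocytes, and the conjugates leave the cell through ATP-driven exporters.

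Levels per kilobase of exon, which allow genes to be compared, were highest for Mgst1 (1013 CPM per kb, mean of 12 libraries), the microsomal glutathione transferase. Ces3a (693), Ces1c (644), Gstp1 (508.5) and Gstm1 (442) followed. Within Ugt the highest per kilobase were Ugt2b5 (272) and Ugt2b1 (227), both of the subfamily that conjugates steroids and phenols. Within Sult they were Sult1a1 (255), which sulfates phenols, and Sult2a8 (169), which sulfates bile acids in mouse liver. The 3 members with the highest CPM gave 97.1% of the summed Sult CPM (Sult2a8, Sult1a1 and Sult1d1), 71.3% for Ces (Ces3a, Ces1c and Ces1d), 69.4% for Gst (Mgst1, Gsta3 and Gstp1) and 45.1% for Ugt (Ugt2b1, Ugt2b5 and Ugt2b34).

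The genes lie in clusters (GENCODE M21 annotation of GRCm38, which is mm10). All 17 Ces members are on chromosome 8, and Ces2d-ps among them is annotated as an unprocessed pseudogene. On chromosome 5 are 10 Ugt2 members and 3 Sult members (Sult1b1, Sult1d1 and Sult1e1), on chromosome 1 the 8 Ugt1a rows, on chromosome 3 the 7 Gstm members, and on chromosome 19 Gstp1 and Gstp2. Neighbours in such clusters can be near-identical, and 24 of the 71 members had values that were not whole numbers in at least 10 libraries, as arises where reads are shared between copies. For these 24, which include 16 of the 27 members called below, the split of reads between copies is uncertain.

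Summed over a family, the level was lower in LiKM than in the LiK normal diet group in all 4 families. The Ugt total was 4439 ± 127 CPM in LiK and 2860 ± 546 in LiKM (mean ± SD, n = 3, as for all group values), which is 35.6% lower. The Ces total was 6636 ± 248 against 4367 ± 947 CPM, 34.2% lower, and the Sult total 1343 ± 118 against 923 ± 139 CPM, 31.2% lower. In each of these 3 families every LiKM library on the normal diet was below every LiK library on it. The Gst total differed least, 6152 ± 211 against 5041 ± 356 CPM (18.1% lower), and it changed direction with the scaling: without TMM factors it was 0.10 higher on the log2 scale. The falls of the Ugt, Ces and Sult totals kept their direction without TMM factors but were smaller, as given in the last section.

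On ACR the totals of the strains lay closer together, with Ugt at 3707 ± 90 CPM in LiK and 3062 ± 611 in LiKM and Ces at 5828 ± 308.5 and 5104 ± 955.5. Sult totals were 1162 ± 75 and 893 ± 239.5, which is 23.1% lower in LiKM. Gst totals were 5104 ± 443 and 5399 ± 387, so LiKM was the higher. The Ces order on ACR turned without the members whose values were not whole in most libraries: the log2 ratio of LiKM to LiK was then 0.33 rather than -0.19. The members left out there were not the set of 24 given above. No test was made on these sums, since the members were chosen with results of these data known.

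**Figure D1:**
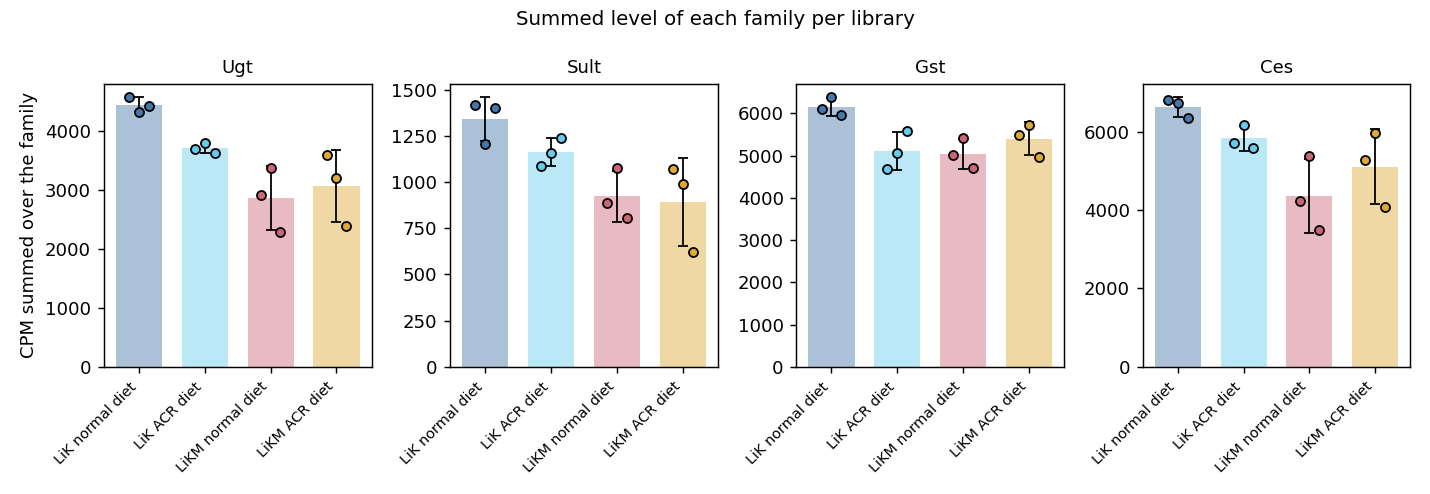
Summed CPM of each family in each library (points), with group means (bars) and SD (error bars, n = 3). On the normal diet the 3 LiKM points lie below the 3 LiK points in every panel, but the Gst order depends on TMM scaling. Without it the Ugt, Sult and Ces differences are smaller.

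Member by member, the strain difference on the normal diet took a lower level in LiKM far more often than a higher one. Of the 64 members tested, 27 passed edgeR's quasi-likelihood test at an adjusted p under 0.05, where 21.8% of all genes tested did. Of these, 26 were lower in LiKM, 40.6% of the members beside 8.61% of all genes, and 1 was higher, beside 13.2% of all genes. The median log2 fold change of the 64 members was -0.50 and that of all genes 0.02, and 52 members lay below 0. Ugt had 12 lower of 19 tested and 1 higher, Ces 7 lower of 16, Sult 3 of 9 and Gst 4 of 20. Markers moved as well: all 12 bile duct and progenitor markers were higher in LiKM, 6 of 8 T and NK cell markers were higher and 1 lower, and 3 of 15 hepatocyte markers (Ttr, Serpina1c and Ass1) were lower with a median of -0.49. Their part in the members' differences was not tested.

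How many members were called depended on scaling and on single libraries. Scaling by library size alone moved the median of all genes to 0.40 and that of the members to -0.11. The members thus stood 0.51 below all genes rather than 0.52. It called 7 members lower and 4 higher (Gsta1, Gstm1, Gstm5 and Ugt8a), where 4831 of 13880 genes were called in place of 3031. Of all calls 97.6% were higher in place of 60.6%. Under that scaling the log2 fold changes of Ugt2b5 (-0.07), Gstt1 (-0.08) and Ugt1a2, Ugt1a7c and Ugt1a10 (-0.11 each) were small. Without LiK normal diet 1 the test called 11 members, without LiKM normal diet 1 it called 16 and without LiKM normal diet 3 it called 15. The share of all genes called in these fits was not determined, so the counts are a description only. LiKM normal diet 3 had the fewest counts of the 12 libraries and the highest TMM factor (1.243). Ces2a, Sult5a1, Ugt2a3, Ugt3a1, Ugt3a2 and Ugt8a passed under every alternative run. Gstp1, Ugt1a5 and Ugt2b38 also passed without each library in turn, and the other 18 did not.

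**Figure D2:**
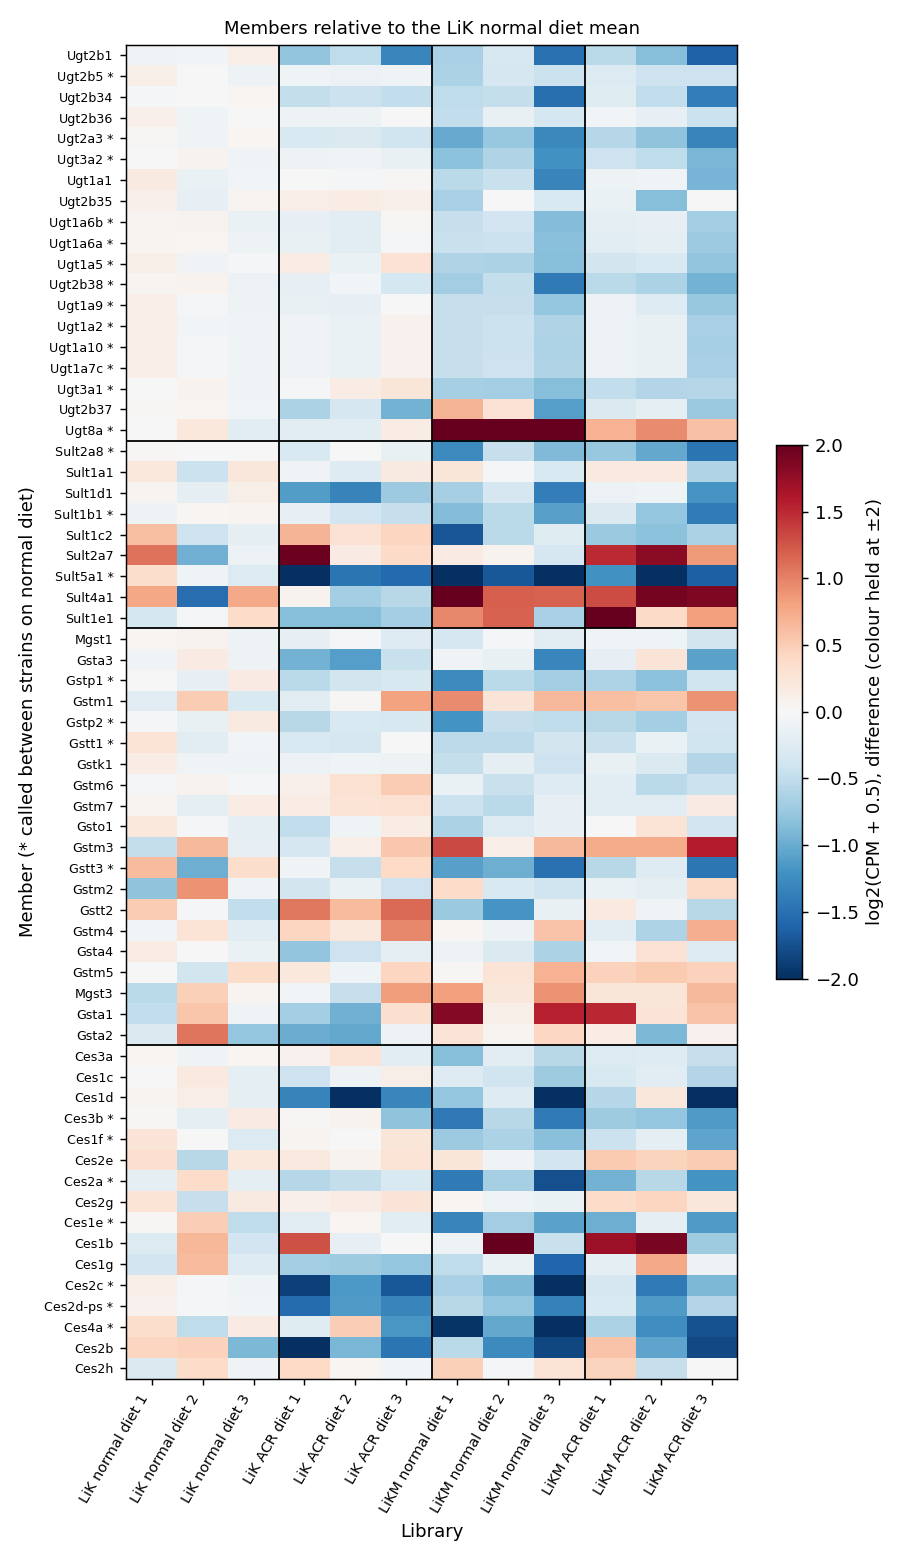
Level of the 64 tested members (rows, by family and falling mean CPM) in the 12 libraries (columns), as log2(CPM + 0.5) minus the LiK normal diet mean, with colours held at 2 in either direction. Asterisks mark the 27 members called between strains on the normal diet, of which 26 were lower in LiKM.

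Among the glycosyltransferases, Ugt2a3, which lies beside the Ugt2b genes (chromosome 5, 87324972 to 87337195, minus strand), stood at 326, 306 and 331 CPM in the LiK normal diet group and at 159, 189 and 131 in LiKM. It was at 260.2, 263 and 244 CPM in LiK given ACR and at 217, 184 and 128 in LiKM given ACR. The highest LiKM library was thus below the lowest LiK library on each diet. On the normal diet it fell by 1.01 (SE 0.18) on the log2 scale in LiKM (edgeR adjusted p = 0.00318), whereas on ACR the difference of -0.54 did not pass (adjusted p = 0.0742).

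The Ugt3 genes, neighbours on chromosome 15 whose enzymes use UDP-sugars other than UDP-glucuronic acid, behaved alike on the normal diet. Ugt3a1 (9276888 to 9315032, plus strand) was at 55.1, 57.9 and 52.4 CPM in the LiK normal diet group, 54.4, 61.5 and 65.3 in LiK given ACR, 34.4, 34.3 and 30.5 in the LiKM normal diet group and 38.9, 36.6 and 37.1 in LiKM given ACR. No LiKM library reached the lowest LiK library on either diet. It fell by 0.74 (SE 0.10, edgeR adjusted p = 0.000681) on the normal diet and by 0.69 (SE 0.10, adjusted p = 0.0034) on ACR. Ugt3a2 (9335550 to 9370955, plus strand) was at 279, 293 and 268 CPM in LiK and at 159, 185 and 120.2 in the LiKM normal diet group, and fell by 0.86 (SE 0.16, adjusted p = 0.0044). On ACR its difference was -0.49 (adjusted p = 0.0735).

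Of the Ugt2b genes, the main hepatic glucuronidation enzymes for steroids and phenols, 2 of the 7 were called. Ugt2b38 was 105 ± 7.5 CPM in LiK and 59.2 ± 18.5 in the LiKM normal diet group and fell by 0.82 (SE 0.20, edgeR adjusted p = 0.0141). Ugt2b5 was 589 ± 45 and 427 ± 43 CPM and fell by 0.46 (SE 0.11, adjusted p = 0.0149), though its adjusted p was 0.0625 without LiK normal diet 1 and 0.051 without LiKM normal diet 1. Scaled by library size alone, Ugt2b38 (-0.45, adjusted p = 0.052) and Ugt2b5 (-0.07, adjusted p = 0.636) were not called. The gene with the most counts, Ugt2b1, was at 832, 834 and 952 CPM in LiK and at 553, 695 and 310.3 in LiKM, with a wide spread in LiKM, and its difference of -0.75 did not pass (adjusted p = 0.113). Ugt2b34 was 669 ± 14 and 395 ± 139 CPM (-0.76, adjusted p = 0.0798). Ugt2b37 was the sole Ugt2b member above 0 (0.15, adjusted p = 0.803). Ugt2a1 and Ugt2a2, which overlap, held the same CPM in every library, with 4 to 9 counts a group.

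Ugt8a (chromosome 3, 125865271 to 125938619, minus strand), which puts galactose on ceramide for the lipids of myelin, was the exception in direction. It was at 0.0704, 0.17 and 0 CPM in the LiK normal diet group, at 0, 0 and 0.137 in LiK given ACR, at 2.76, 2.18 and 2.47 in the LiKM normal diet group and at 0.435, 0.61 and 0.366 in LiKM given ACR. All 6 LiKM libraries were above all 6 LiK libraries. These levels rest on few reads: 4 counts in LiK against 108 in the LiKM normal diet group, a ratio of 27.2 (95% counting interval 10.3 to 102), and 2 against 22 on ACR, a ratio of 10.1 (2.49 to 88.8). The intervals cover counting error only. It entered the tests only through the LiKM normal diet group, where it is high, so a call there was favoured by the filter. It rose on the normal diet (edgeR adjusted p = 0.000722) and on ACR (adjusted p = 0.036). The call on ACR was lost without LiK ACR 1 (0.109), LiK ACR 2 (0.13), LiKM normal diet 2 (0.05), LiKM ACR 1 (0.0602) or LiKM ACR 2 (0.088). Both Ugt8a and the summed bile duct and progenitor markers were lower in LiKM given ACR than in the LiKM normal diet group, and the part of such cells was not tested.

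The 8 Ugt1a rows belong to a locus on chromosome 1 in which alternative first exons are joined to shared last exons, so that each enzyme has its own substrate site and a common sugar-binding end. In the annotation 3 exons are identical in all 8 rows (88215044 to 88215175, 88215795 to 88215882 and 88216138 to 88216357). Reads of these exons were spread over the rows: 8 times the lowest row made up 63.0% to 68.8% of the summed Ugt1a counts in 11 libraries and 77.9% in LiKM normal diet 3. Of the 8 rows, 7 were called lower in the LiKM normal diet group, with log2 fold changes of -0.50 to -0.70, and Ugt1a1, the bilirubin enzyme, missed the threshold (-0.73, edgeR adjusted p = 0.0506). Since they share reads, these 7 calls are not independent results. Apart from Ugt1a5, all were lost without LiK normal diet 1 (adjusted p 0.071 to 0.0934) or LiKM normal diet 3 (0.0606 to 0.0727). Ugt1a2, Ugt1a7c and Ugt1a10 were lost also without LiKM normal diet 1 (0.0545 to 0.0562), and Ugt1a6a (0.0542) and Ugt1a6b (0.0673) without LiK normal diet 2. Scaling by library size alone ended all 7 calls, with log2 fold changes from -0.11 (Ugt1a7c, edgeR adjusted p = 0.49) to -0.31 (Ugt1a5, adjusted p = 0.078).

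To look at the first exons apart from the shared part, the lowest row was subtracted in each library. Ugt1a2, Ugt1a7c and Ugt1a10 then held 0.273, 0.043 and 0.226 CPM (means of 12 libraries). Ugt1a1 held 56.1% of what was left, at 210.3, 163 and 178 CPM in LiK and 122.5, 133 and 54.2 in the LiKM normal diet group, a difference of -0.83 that did not pass (edgeR adjusted p = 0.0828). Ugt1a5 was at 41.2 ± 2.9 CPM in the LiK normal diet group, 52.5 ± 12.8 in LiK given ACR, 18.5 ± 3.5 in the LiKM normal diet group and 22.3 ± 3.2 in LiKM given ACR. It fell by 1.15 (SE 0.19, adjusted p = 0.00213) on the normal diet and by 1.23 (SE 0.19, adjusted p = 0.00522) on ACR, compared with 0.70 and 0.59 in the deposited row. Ugt1a6a, which conjugates planar phenols, fell by 0.68 on the normal diet (adjusted p = 0.046) and was not called on ACR (-0.21, adjusted p = 0.568). Ugt1a6b held a similar level (40.7 CPM beside 35.8 for Ugt1a6a, means of 12 libraries). Its normal diet difference of -0.65 missed the threshold (SE 0.23, edgeR adjusted p = 0.0665). Both rows are among those for which the split of reads is uncertain, so Ugt1a6a is not a result apart from Ugt1a6b. Thus 2 of the 5 rows that could be tested in this way were called on the normal diet, Ugt1a6a with little margin, and 1 on ACR.

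**Figure D3:**
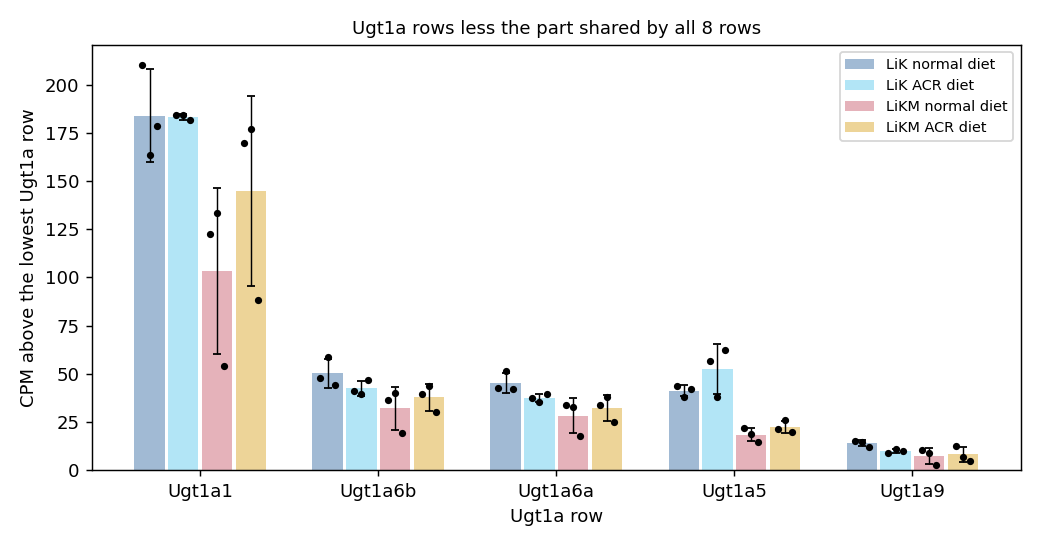
CPM above the lowest Ugt1a row for the 5 rows with a mean of at least 1 CPM above it (points, libraries; bars, group means; error bars, SD, n = 3). Ugt1a5 is 41.2 and 52.5 CPM in LiK and 18.5 and 22.3 in the LiKM normal diet group and ACR, while the Ugt1a1 points of LiKM spread widely.

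The promoters of Ugt1a5 and of its neighbours Ugt1a1 and Ugt1a9 are shown because Ugt1a5 was the row called on both diets. Each is the RefSeq window from 250 bases before to 50 bases after the gene's start (GRCm38.p6, plus strand: chr1:88165762-88166061, chr1:88211709-88212008 and chr1:88070529-88070828, in the order printed). Capitals mark matches on either strand to GCGTG, the core that the aryl hydrocarbon receptor (AHR) binds, or to GTTAATNAT, a core of HNF1 sites in liver promoters. The choice of these genes and of the HNF1 letters was made after the values were seen.
Ugt1a5: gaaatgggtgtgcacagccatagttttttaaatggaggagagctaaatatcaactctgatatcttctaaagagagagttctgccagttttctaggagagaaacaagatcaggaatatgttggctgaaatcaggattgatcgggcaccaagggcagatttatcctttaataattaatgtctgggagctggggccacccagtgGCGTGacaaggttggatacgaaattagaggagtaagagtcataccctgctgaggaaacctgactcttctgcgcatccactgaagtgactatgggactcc
Ugt1a1: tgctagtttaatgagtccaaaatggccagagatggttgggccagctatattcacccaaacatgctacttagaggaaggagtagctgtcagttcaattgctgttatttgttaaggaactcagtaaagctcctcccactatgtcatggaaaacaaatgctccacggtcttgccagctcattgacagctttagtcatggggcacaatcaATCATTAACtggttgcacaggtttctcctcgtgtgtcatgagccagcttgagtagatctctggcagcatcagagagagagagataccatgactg
Ugt1a9: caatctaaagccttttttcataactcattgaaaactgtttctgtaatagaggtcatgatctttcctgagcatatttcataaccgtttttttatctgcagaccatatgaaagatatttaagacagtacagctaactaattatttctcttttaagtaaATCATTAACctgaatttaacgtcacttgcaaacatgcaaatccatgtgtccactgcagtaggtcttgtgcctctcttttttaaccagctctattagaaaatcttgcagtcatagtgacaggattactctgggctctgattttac
The Ugt1a5 window has the AHR core, beginning 49 bases before the start, and not the HNF1 core. Those of Ugt1a1 and Ugt1a9 have the HNF1 core on the minus strand, with its left end 44 and 94 bases before the start, and not the AHR core. The AHR core is in 32.4% of all 32851 RefSeq promoters and in 12 of the 60 members with an entry (20%), and the HNF1 core in 0.801% and in 4 members (Sult1d1, Ugt1a1, Ugt1a9 and Ugt1a10). The antioxidant response core TGACNNNGC, which NRF2 binds, is in 12.4% of promoters and in 4 members (Gsta3, Gstm5, Gstm7 and Mgst1), none of which passed in the fit of all 12 libraries with TMM scaling. A match is a description of letters and not a binding site.

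Among the sulfotransferases, Sult2a8 (chromosome 7, 14410686 to 14446769, minus strand) gave 51.3% of the family's signal. It was at 766, 750.2 and 746 CPM in the LiK normal diet group, 608, 747 and 677 in LiK given ACR, 312, 548 and 408.5 in the LiKM normal diet group and 447, 370.2 and 274 in LiKM given ACR. All 6 LiKM libraries were below all 6 LiK libraries. It fell by 0.83 (SE 0.21, edgeR adjusted p = 0.0164) on the normal diet and by 0.90 (SE 0.21, adjusted p = 0.0232) on ACR. The first call was lost without LiKM normal diet 1 (0.0527), and the second without LiK ACR 2 (0.0935), LiK ACR 3 (0.0542), LiKM ACR 2 (0.0589) or LiKM ACR 3 (0.0544). Scaling by library size alone also ended the first call (-0.45, edgeR adjusted p = 0.0713).

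Sult5a1 (chromosome 8, 123140192 to 123158315, minus strand), a low sulfotransferase transcript, had the largest fall among members on the normal diet. It was at 8.31, 5.998 and 5.19 CPM in LiK and 0.96, 1.62 and 0.875 in LiKM, and fell by 2.49 (SE 0.58, edgeR adjusted p = 0.0117). LiK mice on ACR were at 0.216, 1.998 and 1.85 CPM, near the LiKM levels, and LiKM mice on ACR at 2.49, 0.678 and 1.71. The LiK normal diet group was thus the one that stood apart. Sult1b1, which sulfates thyroid hormones, was 18.8 ± 1.2 CPM in LiK and 10.5 ± 2.1 in the LiKM normal diet group and fell by 0.84 (SE 0.24, adjusted p = 0.0286). Its call was lost without any 1 of 5 of the 6 libraries compared, LiK normal diet 1, 2 or 3 and LiKM normal diet 1 or 3 (adjusted p 0.0593 to 0.0826). It was lost also with scaling by library size alone (-0.46, adjusted p = 0.115).

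For Sult1a1, the highest of the family per kilobase and the second by CPM, no difference was detected: 396 ± 93 CPM in LiK and 384 ± 71 in the LiKM normal diet group (log2 fold change -0.05, SE 0.24, edgeR adjusted p = 0.914). Sult4a1 was higher in LiKM on each diet without passing (1.61 and 2.75, adjusted p = 0.148 and 0.0547). Sult2b1, left out of the tests, had 0 counts in the LiK normal diet group, 2 in LiK given ACR, 23 in the LiKM normal diet group and 10 in LiKM given ACR. Sult3a1 and Sult6b1 had at most 5 and 10 counts a group, and of the other members left out of the tests Gsto2 and Ces1a had at most 6.

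Of the glutathione transferases, the pi class genes Gstp1 and Gstp2, which lie side by side on chromosome 19 (4035407 to 4037985 and 4040285 to 4046023, minus strand), moved together. Gstp1 was at 1052, 934 and 1182 CPM in LiK and at 436, 726 and 649 in the LiKM normal diet group, with no overlap, and fell by 0.81 (SE 0.19, edgeR adjusted p = 0.0118). Scaled by library size alone its fall was 0.41 and was not called (adjusted p = 0.109). Gstp2 fell by 0.69 (SE 0.18, adjusted p = 0.0209), a call lost without LiK normal diet 1 (0.0531) or LiK normal diet 3 (0.0765). With library size alone it was at -0.29 and not called (adjusted p = 0.238). Reads of these copies cannot be assigned with certainty, so the pair is read as a single result.

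The theta class genes Gstt1 and Gstt3, neighbours on chromosome 10, were called with less margin. Gstt3 was at 63.96, 20.7 and 52.3 CPM in LiK and at 19.1, 20.7 and 14.2 in LiKM, so the groups overlapped, and it fell by 1.34 (SE 0.42, edgeR adjusted p = 0.044). Leaving out any of 9 libraries ended that call (adjusted p 0.05 to 0.15): the 6 compared other than LiK normal diet 2, the 3 of LiK on ACR and LiKM ACR 1. Gstt1 was 221 ± 40.5 and 158 ± 9.8 CPM and fell by 0.48 (SE 0.15, adjusted p = 0.0364). It was lost without LiK normal diet 1 (0.148), LiK normal diet 3 (0.0669), LiKM normal diet 1 (0.088) or LiKM normal diet 2 (0.0861). Scaling by library size alone ended the calls of Gstt3 (-0.93, adjusted p = 0.0739) and Gstt1 (-0.08, adjusted p = 0.681).

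Most glutathione transferases did not pass. Mgst1, the member with the highest level of all, was 2227 ± 140 CPM in LiK and 1951 ± 208 in the LiKM normal diet group (-0.19, SE 0.14, edgeR adjusted p = 0.359). Gsta3, known in mice for clearing aflatoxin epoxide, was 1183 ± 121 and 889 ± 360 CPM (-0.41, adjusted p = 0.439). Gstm1, of the mu class, was 496 ± 163 and 752 ± 175 CPM (0.60, SE 0.29, adjusted p = 0.157). Of the 6 Gst members above 0 on the normal diet, Gsta1 had the largest value (1.59, adjusted p = 0.104).

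The carboxylesterases are lipid and drug hydrolases of the endoplasmic reticulum, with some secreted forms. On the normal diet 7 of the 16 tested fell and 14 lay below 0. Ces2a (chromosome 8, 104734003 to 104741634, plus strand) was at 139, 203 and 137 CPM in LiK and at 58.3, 98.3 and 46.1 in LiKM. It fell by 1.24 (SE 0.27, edgeR adjusted p = 0.00877), with no overlap. Ces3b (105083753 to 105093929, plus strand) was at 793, 678 and 876 CPM in LiK and 289, 532 and 291 in LiKM. It fell by 1.08 (SE 0.28, adjusted p = 0.0181), again with no overlap. Its neighbour Ces3a, with the most counts in the family, was 2059 ± 108 and 1436 ± 314 CPM (-0.52, SE 0.18) and missed the threshold (adjusted p = 0.0567).

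The other Ces calls on the normal diet were Ces4a (-1.92, SE 0.53, edgeR adjusted p = 0.025, 7.97 ± 2.42 CPM in LiK), Ces2c (-1.11, SE 0.35, adjusted p = 0.0473), Ces1e (-1.07, SE 0.29, adjusted p = 0.0229), Ces2d-ps (-0.89, SE 0.23, adjusted p = 0.02) and Ces1f (-0.75, SE 0.20, adjusted p = 0.0212). The calls other than Ces2a were lost without LiK normal diet 1 (adjusted p 0.0521 for Ces3b to 0.12 for Ces2c) and without LiKM normal diet 3 (0.0516 for Ces2d-ps to 0.0829 for Ces2c). Without LiKM normal diet 1, Ces1e (0.0797), Ces1f (0.0553), Ces3b (0.0626) and Ces4a (0.0808) were lost. Without LiK normal diet 2, Ces1e (0.0726) and Ces2c (0.0833) were lost, and without LiK normal diet 3, Ces2c (0.0895), Ces3b (0.0599) and Ces4a (0.0651). Ces2c was lost also without LiKM normal diet 2 (0.0747), LiK ACR 1 (0.0563), LiK ACR 3 (0.0649) or LiKM ACR 3 (0.0585). Scaling by library size alone ended the calls of Ces1e (-0.71, adjusted p = 0.0719), Ces1f (-0.36, 0.123), Ces2c (-0.74, 0.0944) and Ces2d-ps (-0.51, 0.0953). Ces1c, a secreted esterase of plasma, was 1746 ± 223 and 1282 ± 200 CPM and was not called (-0.45, adjusted p = 0.0995).

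The Ces1 genes are tandem copies, and 5 of the 7 (not Ces1d and Ces1f) have a RefSeq promoter entry. All 5 windows hold TTATGTAA, the D-box bound by the clock-controlled factors DBP, TEF and HLF and by NFIL3, compared with 0.938% of all 32851 promoters. Of the other 55 members with an entry only Ugt2b1 holds it. Copies of one ancestor are not independent, and these letters were searched after the values were seen. The stretches of 60 bases around the match, with the D-box in capitals, are given to show how far the copies share it (GRCm38.p6, minus strand: chr8:93048357-93048416, chr8:93079991-93080050, chr8:93131344-93131403, chr8:93229667-93229726 and chr8:93337400-93337459, in the order printed).
Ces1a: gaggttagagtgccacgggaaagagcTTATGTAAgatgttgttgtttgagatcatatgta
Ces1b: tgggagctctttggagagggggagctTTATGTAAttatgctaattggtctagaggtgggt
Ces1c: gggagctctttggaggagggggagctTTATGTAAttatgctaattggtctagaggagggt
Ces1e: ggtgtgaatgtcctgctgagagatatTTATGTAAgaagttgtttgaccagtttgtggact
Ces1g: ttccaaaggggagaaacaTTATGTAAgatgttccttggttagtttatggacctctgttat
The match began 198 bases before the start in Ces1a, 84 or 7 in Ces1b (which has 2 annotated starts), 94 in Ces1c, 81 in Ces1e and 232 in Ces1g. Levels behind these like sequences ranged from 13 summed counts for Ces1a to 267910 for Ces1c. Dbp itself was at 25.6 to 35.9 CPM in the LiK normal diet group, 136 to 139 in LiK given ACR, 8.46 to 74.0 in the LiKM normal diet group and 3.25 to 15.4 in LiKM given ACR. Whether Dbp bears on the Ces1 levels was not tested.

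**Figure D4:**
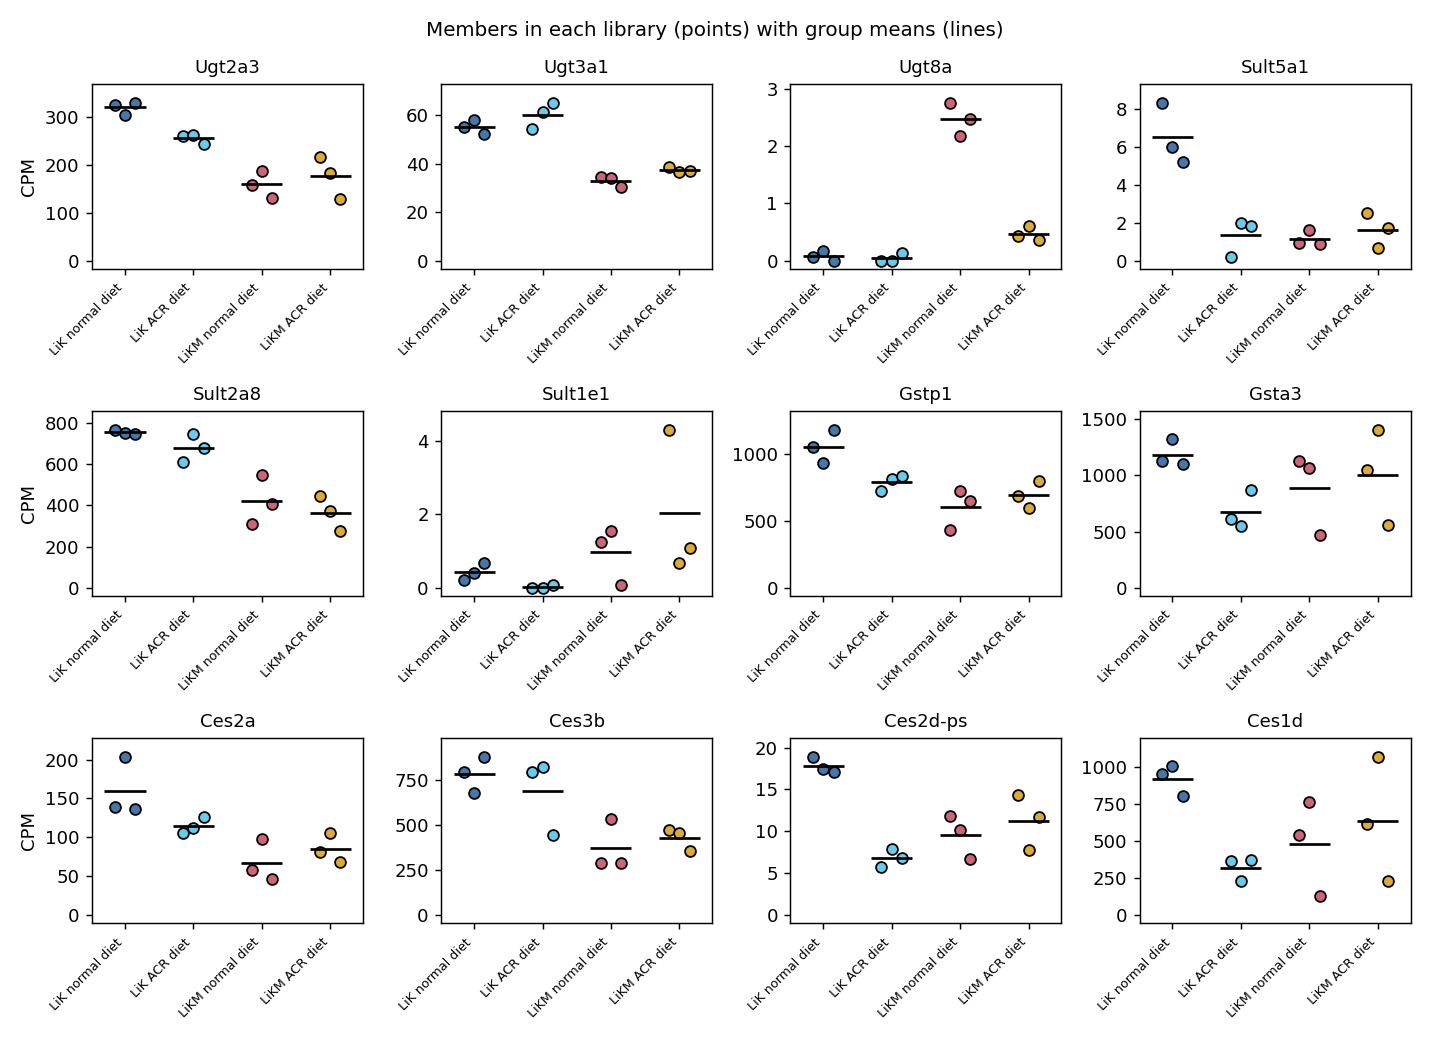
CPM of 12 members in each library (points, ordered by replicate number) with group means (lines). Ugt3a1 and Sult2a8 separate the strains on both diets, Ugt8a is near 0 in LiK, and the points of Ces1d and Gsta3 spread widely in both LiKM groups.

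On ACR fewer members separated the strains. Of 64 tested, 8 passed (12.5%, beside 9.79% of all genes): 6 were lower in LiKM (9.38% beside 4.24%) and 2 higher (beside 5.55%). The median was -0.18 and that of all genes 0.02. Markers of other cells were higher in LiKM here too: 11 of 12 for bile duct and progenitor cells, 3 of 8 for T and NK cells and 2 of 8 for macrophages, while 0 of 15 hepatocyte markers passed. Their part was not tested. Clock genes also differed between these groups (3 of 16 higher and 4 lower in LiKM). On a component that scores each library on the first axis of the 16 clock genes, LiK given ACR was at 0.968 to 1.34 and LiKM given ACR at -2.20 to -0.054, without overlap, so clock state and strain cannot be told apart on this diet. With that component as a covariate no member passed. Since the component separates the groups, the log2 fold changes of that fit cannot be assigned to strain or to clock state. They were -0.67 for Ugt3a1, -0.61 for Gstm6, -0.85 for Sult1c2, -0.33 for Gstt2, -0.19 for Ugt1a5 and -0.08 for Sult2a8. For Ugt8a and Sult1e1, which have few counts, they were 3.05 and 7.87.

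Lower in LiKM given ACR, beside Ugt3a1, Ugt1a5 and Sult2a8, were Sult1c2, Gstt2 and Gstm6. Gstm6, of the mu class on chromosome 3, was at 68.8, 79.0 and 91.8 CPM in LiK and 55.2, 43.9 and 47.6 in LiKM, with no overlap, and fell by 0.71 (SE 0.13, edgeR adjusted p = 0.01). Gstt2 was 50.8 ± 9.05 and 23.8 ± 6.1 CPM and fell by 1.09 (SE 0.31, adjusted p = 0.0473). Sult1c2 was 10.7 ± 1.6 and 4.37 ± 0.31 CPM and fell by 1.29 (SE 0.36, adjusted p = 0.0461). Gstt2 and Sult1c2 were each lost without any 1 of the 6 ACR libraries (adjusted p 0.0519 to 0.121 and 0.0817 to 0.127). Normal diet libraries also ended them: LiK 2 (0.0583) and LiKM 1 (0.0579) for Gstt2, LiK 3 (0.0616) and LiKM 2 (0.0589) for Sult1c2. The deposited Ugt1a5 row was lost without LiK ACR 1 (0.0821), LiK ACR 3 (0.0939) or LiKM ACR 3 (0.0671). Of the whole set, Ugt3a1 and Gstm6 were the calls kept without each library in turn.

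Sult1e1, which sulfates and inactivates estrogens, was the second member higher on ACR. It was at 0, 0 and 0.0686 CPM in LiK and at 4.29, 0.678 and 1.10 in LiKM, so the groups did not overlap, but the LiK level rests on 1 count against 97 in LiKM. The ratio of summed levels was 89.3 with a 95% counting interval of 15.7 to 3562 (edgeR adjusted p = 0.0194). It passed the filter on low counts only through LiKM libraries, so that a difference between strains was favoured. Without LiK ACR 1, 2 or 3 the call was lost (0.0712, 0.0885 and 0.059). On the normal diet it had 18 counts in LiK and 44 in LiKM, with overlap, and was not called (adjusted p = 0.363).

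Across the diets, which share no mice in the strain comparisons, 4 members were called both times: Ugt1a5 (-0.70 and -0.59), Ugt3a1 (-0.74 and -0.69), Sult2a8 (-0.83 and -0.90) and Ugt8a (4.66 and 3.13). They are 14.8% of the calls on the normal diet and 50% of those on ACR. The share of all genes called on both diets was not determined, so the number is a description only. On the normal diet 21.8% of all genes were called, and on ACR 9.79%. Ugt8a is among the 4 although the filter favoured its call on the normal diet. Of the 26 members lower in the LiKM normal diet group, 23 were below 0 on ACR and 25 were closer to 0 there, with medians of -0.81 and -0.35. They were picked by their value on the normal diet, so the shift is a description. Over the 64 members the log2 fold changes on the diets had a Pearson correlation of 0.607 and a Spearman correlation of 0.474, given as a description, since neighbouring copies share reads.

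**Figure D5:**
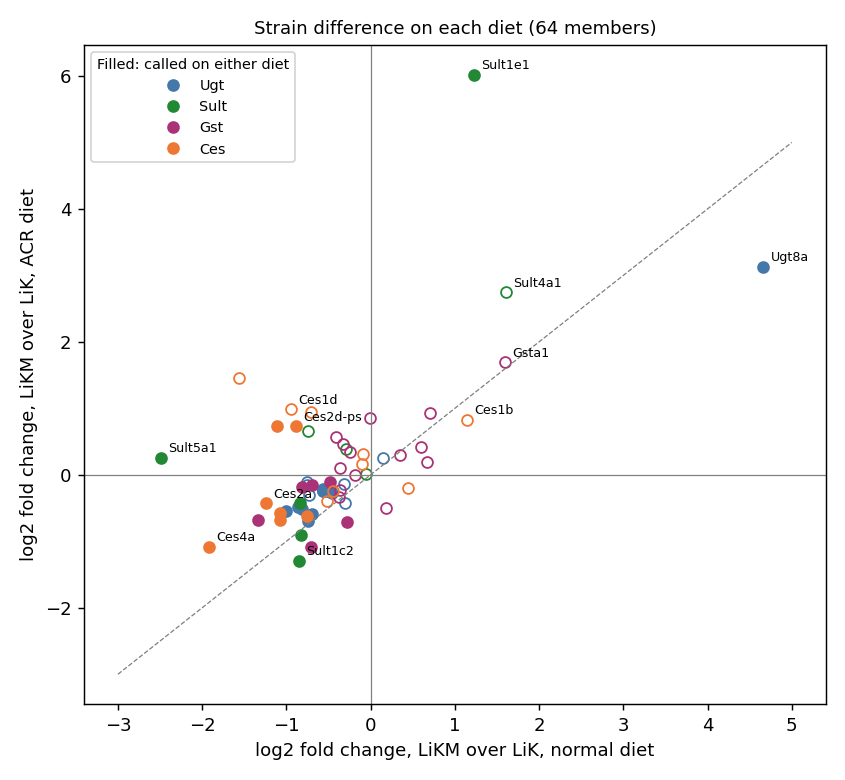
log2 fold change of LiKM over LiK on the normal diet (x axis) and on ACR (y axis) for the 64 tested members, coloured by family, with filled points for members called on either diet and the dashed line for equal values. Ugt8a and Sult1e1 lie high on ACR, and Ces2d-ps, which was lower on the normal diet, lies above 0 on ACR without passing.

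In LiK mice, ACR changed 1 member by the test, beside 0.195% of all genes. Ces2d-ps, the pseudogene between the Ces2 genes, was at 18.9, 17.4 and 17.1 CPM without ACR and 5.77, 7.86 and 6.79 with it, and fell by 1.38 (SE 0.24, edgeR adjusted p = 0.0488). That call was lost without any 1 of the 6 LiK libraries (adjusted p 0.113 to 0.206) and without LiKM normal diet 2 (0.0696). Levels that did not overlap were common: in 20 of 64 members all 3 ACR libraries were below all 3 normal diet libraries (31.2%, beside 14.6% of all genes), and in 3 they were above (4.69%, beside 13.4%). A fit on the 6 LiK libraries alone called 8 members, all lower on ACR, where 6.34% of 12803 genes were called. These were Ces1d, Ces2c, Ces2d-ps, Gsta3, Sult1d1, Ugt2a3, Ugt2b1 and Ugt2b34.

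Ces1d, a triacylglycerol hydrolase of hepatocytes, was at 951, 1006 and 805 CPM in the LiK normal diet group and 364, 229 and 371 on ACR. Its difference was -1.52 in the fit of all libraries (SE 0.61, edgeR adjusted p = 0.305) and -1.51 in the fit of LiK alone (SE 0.19, adjusted p = 0.0072). In LiKM it ran from 130 to 766 CPM without ACR and from 229 to 1068 with it. Ces2c, active on triacylglycerol and drugs, was at 45.5, 40.2 and 39.0 CPM in LiK without ACR and 11.03, 18.5 and 12.5 with it (-1.57, adjusted p = 0.112 in the fit of all libraries and 0.00467 in that of LiK). Sult1d1, which sulfates catecholamines, was 155 ± 17 and 74.9 ± 16.5 CPM (-1.04, adjusted p = 0.183 and 0.014). Clock genes set the LiK ACR mice apart as well, with a clock component of 0.968 to 1.34 compared with 0.095 to 0.271 in the LiK normal diet group, so that diet and clock state cannot be told apart here.

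In LiKM mice no member passed between the diets, and 0% of all genes did. At an unadjusted p under 0.05 there were 4 of 64 (6.25%, beside 7.24% of all genes). DESeq2 called 1 (Ugt8a, -2.39, DESeq2 adjusted p = 0.00163) and limma 0, but the shares of all genes that they called were not determined. In this strain 52 members lay above 0, with a median of 0.20 beside -0.01 for all genes. Ces2e was at 292, 235.5 and 189 CPM without ACR and 353, 337 and 350.2 with it, without overlap, but did not pass (0.54, SE 0.21, edgeR adjusted p = 0.566). For Ugt8a all 3 ACR libraries lay below all 3 normal diet libraries without passing (-2.38, SE 0.48, edgeR adjusted p = 0.187).

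The diet effect itself was compared between strains by the interaction of strain and diet. No member passed, beside 0.0072% of all genes (1 gene). At an unadjusted p under 0.05 in edgeR there were 11 members (17.2%, beside 11.5% of all genes). DESeq2 called 2 (Ces2c, 1.84, and Ces2d-ps, 1.62) and limma 0. The shares of all genes that DESeq2 and limma called were not determined, so their counts are a description only. With the replicate number as a block within each strain 3 members were called (Ces1d, 2.04, Ces2d-ps, 1.62, and Sult1d1, 1.40, edgeR adjusted p = 0.0233, 0.046 and 0.0073) where 1.05% of all genes were. In that fit the diet differences of the 3 in LiK were -1.54, -1.39 and -1.06. Same-numbered LiK libraries of the diets did not deviate together (correlations 0.023, -0.052 and -0.0717), so the block has no ground in that strain. This comparison uses the same LiK normal diet libraries as the strain and diet comparisons above and is no separate evidence.

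Genes that serve these enzymes were described from lists, under TMM scaling only. For the lists here and below, the shares of all genes between strains are the background. On the normal diet 13.2% of all genes were called higher in LiKM and 8.61% lower, and on ACR 5.55% and 4.24%. Library size alone would move all of their values up with the median of all genes. Of 5 genes that supply UDP-glucuronic acid, 1 fell in the LiKM normal diet group (Slc35d1, the carrier into the endoplasmic reticulum, -0.61, edgeR adjusted p = 0.031). Of 10 genes that supply sulfate, Papss1, which makes PAPS, rose (0.92, adjusted p = 0.00614), while Suox (-1.02), Slc26a1 (-0.82) and Impad1 (-0.37) fell. Of 11 genes of glutathione synthesis and recycling, Slc7a11, the cystine importer, rose (1.84, adjusted p = 0.0271) and Oplah fell (-0.66, adjusted p = 0.0173). On ACR 3 of these rose, Slc7a11 (1.95), Gclc (0.89) and Ggct (0.88), and Oplah fell (-0.68). The supply genes thus moved in both directions.

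The 6 ATP-driven exporters listed all passed between strains on the normal diet, but in both directions. There Abcc3 (1.02, edgeR adjusted p = 0.00319), Abcc4 (1.55, adjusted p = 0.00162) and Abcb1a (1.06, adjusted p = 0.0232) rose in LiKM. Abcc2, the exporter into bile, fell (-0.65, adjusted p = 0.00979), as did Abcc6 (-0.52) and Abcg2 (-0.71). Abcc3 and Abcc4, which export toward the blood, were thus higher and Abcc2 lower. On ACR Abcc4 rose (0.88), Abcc2 (-0.82) and Abcc6 (-0.45) fell, and Abcc3, Abcg2 and Abcb1a did not pass. In LiK mice ACR raised Abcc3 (1.18, adjusted p = 0.0223). Of 14 other esterases and epoxide hydrolases 6 fell on the normal diet, led by Ephx2, the soluble epoxide hydrolase (-0.96, adjusted p = 0.00656), and 0 rose. Of 15 other conjugating enzymes 3 fell (Gstz1, -0.58, Glyat, -0.48, and Gnmt, -0.90). Of 4 tested deconjugating enzymes 0 passed on the normal diet and 1 fell on ACR (Arsa, -1.17).

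Of 17 regulators of these genes, the nuclear receptors Ppara (-0.75, edgeR adjusted p = 0.0042) and Rxra (-0.47, adjusted p = 0.0169) and the growth hormone receptor Ghr (-0.87, adjusted p = 0.0155) fell in the LiKM normal diet group, and Nfe2l2, which encodes NRF2, rose (0.41, adjusted p = 0.0461). On ACR Ppara (-0.99), Rxra (-0.70) and Cebpa (-1.05) fell. Of 14 NRF2 targets outside the families 3 rose on the normal diet and 5 on ACR, led by Cbr3 (3.15 and 3.34), and 0 fell. Slc7a11 and Abcc4 on both diets and Gclc on ACR are among these calls and were also counted in the lists above. Of 5 tested AHR targets, Cyp1a1 (-1.44, adjusted p = 0.00989) and Cyp1a2 (-1.51, adjusted p = 0.0146) fell and Cyp1b1 rose (2.32, adjusted p = 0.0254) on the normal diet. Of 12 tested targets of the nuclear receptors CAR and PXR, 2 rose and 0 fell on the normal diet, with a median of -0.38, and 0 passed on ACR. Abcc3, counted above as an exporter, is among these. Of 15 male-biased liver genes 3 fell on the normal diet and 2 on ACR, and of 12 tested female-biased genes 0 and 2 rose. Among genes of the liver lobule's zones, 4 of 12 periportal and 3 of 12 pericentral genes fell on the normal diet.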

How the data were processed

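Polyadenylated RNA of 12 mouse livers was read from a stranded library kit, per the labels' protocols. The values are expected counts per gene, deposited by the authors, who counted reads with featureCounts 2.0.0 on mm10, per the submitters' processing notes. The sources used here do not give the strand setting or the handling of shared reads. Of the values above 0, 18.9% were not whole (tolerance 1e-09), and all were rounded for the tests.

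Genes were tested with edgeR 4.0.16 (R 4.3.3): TMM factors, filterByExpr by group, a robust quasi-likelihood fit of all 12 libraries with 1 coefficient per group, and Benjamini-Hochberg adjustment over 13880 genes at 0.05. The common biological coefficient of variation was 0.203. CPM are per library size times TMM factor. DESeq2 1.42.0 and limma 3.58.1 (voom) were alternatives, with other scalings and filters, covariates, the replicate number as a block, and each library left out. The code was tested on simulated counts. Replicates of a group differed beyond sampling noise.

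Same-numbered LiKM libraries of the diets deviated together (correlations 0.366, 0.217 and 0.485), so their numbers pair them by the rule used, whereas those of LiK did not (0.023, -0.052 and -0.0717). Nothing in the labels says what the number marks. With 3 libraries a group few pairings are possible, so these correlations do not show that mice were paired.

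The members and the lists of related genes were chosen with earlier results of these data known. Named were the 3 highest members of each family, up to 6 called members of each family and direction with at least 1 CPM, members with few counts in a called comparison, and called genes of the lists. Others (Ugt1a1, Sult4a1, Sult2b1, Gstm1, Gsta1, Ugt2b37, Ces2e, Ces1f and Ugt1a6a among them) were added after their values were seen.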

Additional observations from a re-analysis of the deposited data

How the results depend on the processing

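Between strains on the normal diet 27 members were called, and 25 to 32 with other filters, DESeq2 or voom. Library size alone called 11, and leaving out 1 library 11 to 32. With the identifier prefix as a covariate the calls of Ces2c (edgeR adjusted p = 0.0738) and Gstp2 (0.0751) were lost. Except where given above, the share of all genes called under these alternatives was not determined. The counts of members here and below are thus a description only. On ACR 8 were called, but 14 by DESeq2, 5 with the identifier prefix as a covariate, 0 with the clock component, 4 without 3 libraries (LiKM ACR 2 and 3 and LiKM normal diet 3), and 3 to 11 with 1 library left out. For diet in LiK the 1 call became 0 with DESeq2 size factors, library size alone, voom, the prefix or the clock component, 4 by DESeq2, 8 with only the groups compared or without those 3 libraries (which leaves 1 LiKM library on ACR, assumed to vary like the others), and 0 to 2 with 1 library left out. These 3 were picked from earlier results on clock genes, although the clock component of LiKM normal diet 3 (-0.083) is mid-range. The replicate block gave 6 calls for diet in LiK, 0 for diet in LiKM and 3 for the interaction, and over all 12 libraries 29 and 8 for the strain comparisons. For diet in LiKM DESeq2 called 1. For the interaction DESeq2 called 2, and without those 3 libraries 1 was called.

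Scaled by library size alone, the log2 ratios of family totals between strains on the normal diet were -0.26 for Ugt (main -0.63), -0.15 for Sult (-0.54), -0.23 for Ces (-0.60) and 0.10 for Gst (-0.29). For Gst they were 0.19 on ACR, -0.15 for diet in LiK and -0.05 for diet in LiKM. Without members whose values are not whole in most libraries, Sult was at -0.81 between strains on the normal diet, and Ces at 0.33 between strains on ACR (main -0.19) and -0.60 for diet in LiK. The members left out there are not the set of 24 that were not whole in at least 10 libraries, which holds no Sult gene. The cause of these shifts was not tested. Of the single-member results over the alternatives, 804 stayed on their side of the threshold, 175 lost it, 22 gained it and 0 reversed direction. The 804 mix calls that were kept with results not called in the main fit that stayed so. They are thus not a count of calls kept, while the 175 are all lost calls. Low counts limit Ugt8a, Sult1e1 and Sult2b1, and reads shared by near-identical copies limit the Ugt1a, Gstp and Ces members.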
